A study of Mus musculus with 15 samples.

Results

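The 43 genes described here encode proteins that remove introns from pre-mRNA or decide which exons are kept, and they are 43 of the 20453 genes in the deposited count table. They were taken as a list of names by the function of their proteins, a list drawn up with earlier results of these data known. By role they are 10 SR proteins, 13 hnRNP proteins, 9 proteins of the U2 snRNP and U2AF, 8 proteins of the U1, U5 and tri-snRNP particles with Prpf19, and Rbm39 with the muscleblind proteins Mbnl1 and Mbnl2. All 43 were present in the table and passed the filter on low counts.

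The study is on the MLL-AF9 fusion oncogene, and its RNA-seq libraries were made from C57BL/6 bone marrow cells sorted by flow cytometry. The groups, as titled, are LTearly (4 libraries), LTlate (3 libraries), BMTGMP (3 libraries) and wtGMP (4 libraries), and each is 1 name in the labels that is not spelled out there. Per the labels' protocols, a human MLL-AF9 cDNA was targeted into A2Lox-cre embryonic stem cells, which had been given doxycycline to switch on Cre, and double heterozygous female mice of the resulting backcrossed lines were used. This text is attached to every library, wtGMP included, and the genotype, age, time point and donor of each group are not given in the sources used here. Before sorting, magnetic beads removed cells with the lineage markers Cd5, Cd11b, Gr-1, B220 and Ter119. A gate for granulocyte-macrophage progenitors (GMPs; Sca-1-, c-Kit+, Cd34+, Fcγ receptor high) and a gate for long-term haematopoietic stem cells are described, without saying which library came from which. Titles of the LTearly, LTlate and BMTGMP libraries carry a tag that differs within each group, and wtGMP titles carry none. The labels do not say what a tag stands for or whether the libraries of a group came from separate animals. The p-values thus measure the spread between these libraries, which may be technical in part.

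Counts assigned to genes ran from 2696288 to 8695512 per library in LTearly, 11569819 to 15093477 in LTlate, 4556530 to 10713184 in BMTGMP and 2469869 to 6979138 in wtGMP. Within groups, pairs of libraries had rank correlations of 0.86 to 0.903 in LTearly, 0.948 to 0.956 in LTlate, 0.908 to 0.933 in BMTGMP and 0.913 to 0.942 in wtGMP. Another 1 library is titled LTearly but its table column is named LTlate, so it entered no comparison. The labelled cell type was checked against marker genes. Kit, the receptor of the c-Kit gate, had 26.7 to 91.6 CPM (counts scaled to the size of the library) in LTearly, 7.91 to 32.9 CPM in LTlate, 50.1 to 90.6 CPM in BMTGMP and 157 to 237 CPM in wtGMP. Cd34 was at 12.8 to 62.9 CPM in LTearly, 93.8 to 147 CPM in LTlate, 3.37 to 6.7 CPM in BMTGMP and 212 to 278 CPM in wtGMP. The summed level of 4 stem cell marker genes was 22.5 to 48.1 CPM in LTearly, 0.0816 to 7.09 CPM in LTlate, 1.3 to 24.1 CPM in BMTGMP and 0 to 6.33 CPM in wtGMP. Mecom made up most of the LTearly sum, with a mean of 27.4 CPM, and 0 of the 4 were called in LTearly against wtGMP. Slamf1, which encodes Cd150 of the stem cell gate, had 0 counts in every LTlate and wtGMP library, at most 15 in an LTearly library and at most 2 in a BMTGMP library.

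Splicing begins when the U1 snRNP pairs with the 5′ splice site and U2AF and the U2 snRNP settle on the 3′ splice site and the branch point. The tri-snRNP of U4, U6 and U5 then joins, and rearrangements driven by helicases build the catalytic centre. SR proteins bind exons and mostly favour their inclusion, whereas hnRNP proteins coat the transcript and often oppose it. Splicing factors have a known place in myeloid disease, since SF3B1, SRSF2 and U2AF1 are recurrently mutated in human myelodysplastic syndromes and acute myeloid leukaemia.

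LTearly against wtGMP held the largest number of called genes among the 6 pairs of groups. In LTearly 24 of the 43 genes fell relative to wtGMP and 0 rose, at an adjusted p under 0.05 in edgeR's quasi-likelihood test over all 14553 genes tested. Of all genes tested, 8.96% were lower in LTearly in that test and 11.2% were higher. The median log2 fold change of the 43 genes was -0.54, a ratio of 0.686, against a median of 0.22 over all genes tested. The fitted change was below 0 for 41 of the 43. At 25 of the 43 genes every LTearly library lay below every wtGMP library, and 10.3% of all genes tested did so. At 0 genes every LTearly library lay above every wtGMP library, against 11.5% of all genes tested. The count of falls was 15 without wtGMP replicate 3 and 16 to 23 when any other library was left out. Of all genes tested 6.94% and 7.25% to 11.1% were lower in those fits.

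The falls were modest in size and were shared out over most roles. Called genes numbered 10 of 13 hnRNP proteins (median log2 fold change of the role -0.65), 7 of 10 SR proteins (median -0.5), 4 of 9 proteins of the U2 snRNP and U2AF (median -0.51), 3 of 8 of the U1, U5 and tri-snRNP role (median -0.49) and 0 of the 3 in the last role (median -0.06). In bulk RNA of sorted cells, fewer cells that express a gene and less of its RNA per cell cannot be told apart. The 43 genes together took up 14210, 16732, 13929 and 17192 CPM in the LTearly libraries, 16701, 17260 and 18435 CPM in LTlate, 19728, 18436 and 17212 CPM in BMTGMP, and 21174, 20307, 22897 and 21672 CPM in wtGMP. Every library of the other 3 groups thus had a lower sum than the lowest wtGMP library.

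**Figure D1:**
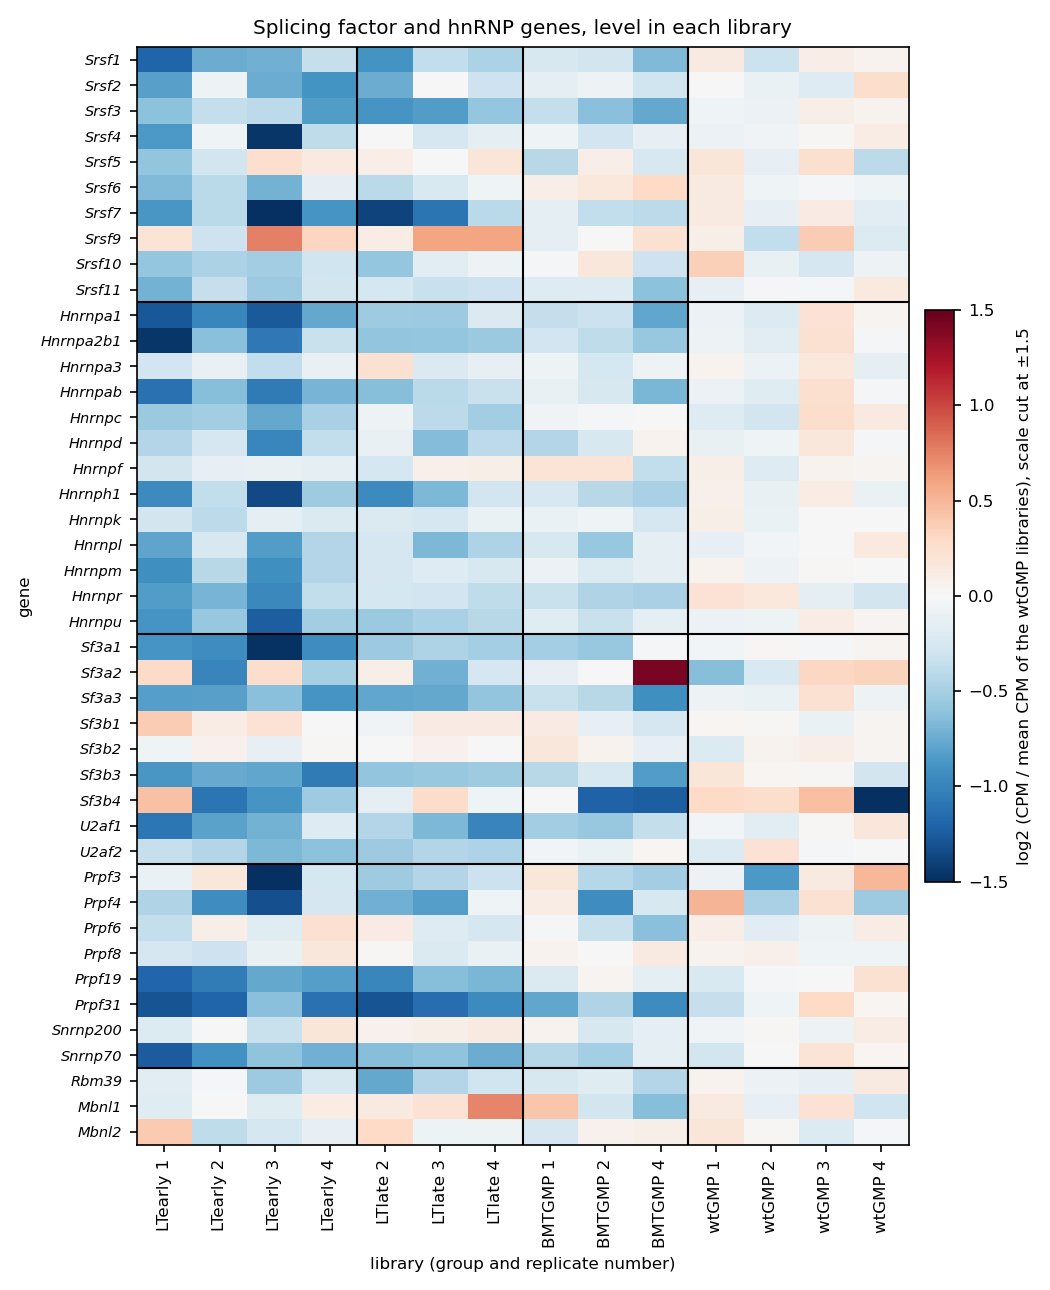
Level of each of the 43 genes (rows, grouped by role with black lines) in each of the 14 libraries (columns), as the log2 ratio of its CPM to the mean CPM of the 4 wtGMP libraries; blue is lower, red is higher, and the colours stop at a log2 ratio of 1.5 in either direction. The median ratio of a library over the 43 genes was -0.37 to -0.7 in LTearly, -0.3 to -0.41 in LTlate, -0.14 to -0.25 in BMTGMP and -0.09 to 0.09 in wtGMP, while the rows of Sf3b1, Sf3b2 and Snrnp200 stayed pale in all groups.

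Other cell markers moved with this comparison. The summed level of 11 late neutrophil genes was 13898 to 19174 CPM in LTearly, 3787 to 9978 CPM in LTlate, 1245 to 6665 CPM in BMTGMP and 61.7 to 176 CPM in wtGMP, and 11 of the 11 were called higher in LTearly. Itgam, which encodes the depleted surface marker Cd11b, was at 865 to 1713 CPM in LTearly, 1074 to 1651 CPM in LTlate, 413 to 539 CPM in BMTGMP and 31.1 to 76.3 CPM in wtGMP. The 6 genes of the GMP gate list summed to 1237 to 5982 CPM in LTearly, 1298 to 1574 CPM in LTlate, 7039 to 10821 CPM in BMTGMP and 17693 to 21153 CPM in wtGMP. This list adds Mpo and Elane to genes of the gate, and Mpo made up most of the wtGMP sum, with a mean of 17487 CPM. Against wtGMP 4 of the 6 were called lower in LTearly. The Fcγ receptor genes Fcgr3 (log2 fold change 0.33) and Fcgr2b (0.48) were fitted above 0 there and not called. In LTlate 2 of the 6 were called higher and 2 lower. The 10 proliferation genes summed to 8303 to 12629 CPM in LTearly, 10353 to 12213 CPM in LTlate, 11225 to 12755 CPM in BMTGMP and 9963 to 10535 CPM in wtGMP, and 4 of them (Mcm2, Mcm3, Mcm5 and Tyms) were called lower in LTearly. Mki67 made up most of this sum, with means of 7269 CPM in LTearly and 6168 CPM in wtGMP. Its log2 fold change was 0.24, while all the others of the list were fitted below 0 and the list median was -0.5. The part of these cell markers in the fall of the splicing genes was not tested.

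Among the hnRNP proteins, Hnrnpa1 fell most. It is a repressor of exon inclusion that works against Srsf1 in splice site choice. Hnrnpa1 had 144, 177, 146 and 206 CPM in the LTearly libraries (in the order of their replicate numbers, here and below), 243, 239 and 301 CPM in LTlate, 274, 280 and 203 CPM in BMTGMP, and 329, 304, 406 and 360 CPM in wtGMP. All LTearly libraries were below all wtGMP libraries, and the highest LTearly library also lay above the lowest BMTGMP library. Hnrnpa1 averaged 169 ± 29.2 CPM in LTearly and 350 ± 44.1 CPM in wtGMP (SD, n = 4 each), a log2 fold change of -1.05 ± 0.17 (SE) with an adjusted p of 5.54e-05 in edgeR. Its deposited counts were not whole numbers in any library, because reads that also match elsewhere were divided, so its level is less certain than that of a gene with unique reads.

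Hnrnpab, a nuclear RNA- and DNA-binding relative of Hnrnpa1, had 582, 811, 605 and 778 CPM in LTearly, 814, 960 and 1007 CPM in LTlate, 1168, 1070 and 787 CPM in BMTGMP, and 1188, 1119, 1500 and 1255 CPM in wtGMP. The LTearly libraries all lay below the lowest wtGMP library, with a log2 fold change of -0.87 ± 0.16 and an adjusted p of 0.000219 in edgeR. Hnrnpu, the scaffold attachment factor of the nuclear matrix, had 1220, 1513, 956 and 1569 CPM in LTearly, 1528, 1602 and 1687 CPM in LTlate, 1975, 1789 and 2044 CPM in BMTGMP, and 2121, 2124, 2438 and 2307 CPM in wtGMP. Its LTearly libraries were below all BMTGMP and all wtGMP libraries, and the log2 fold change against wtGMP was -0.77 ± 0.15. The other hnRNP genes called lower had log2 fold changes of -0.81 (Hnrnpa2b1, known for RNA transport), -0.75 (Hnrnph1, which binds runs of G), -0.70 (Hnrnpr), -0.65 (Hnrnpm), -0.58 (Hnrnpc, which binds runs of U), -0.55 (Hnrnpl, which binds CA repeats and represses variable exons of Ptprc) and -0.48 (Hnrnpd, also known for the decay of AU-rich mRNA). Of the 17 planned settings, the fit described here among them, Hnrnpd was called in 7, Hnrnpl in 13 and Hnrnpc in 16. Hnrnpk (-0.26, adjusted p = 0.181 in edgeR), Hnrnpa3 (-0.22, adjusted p = 0.415) and Hnrnpf (-0.16, adjusted p = 0.543) did not pass the test.

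Of the SR proteins, Srsf1, which binds exonic enhancers and also acts in mRNA export and translation, averaged 305 ± 72.8 CPM in LTearly and 504 ± 68.9 CPM in wtGMP (SD, n = 4 each), a log2 fold change of -0.72 ± 0.18 with an adjusted p of 0.00437 in edgeR. Srsf7, which couples splicing to export, changed by -0.90 ± 0.24 on the log2 scale (adjusted p = 0.00731 in edgeR). Srsf4 (-0.60), Srsf3 (-0.54), Srsf6 (-0.46) and Srsf11 (-0.46) were also called lower. Their fitted changes lay nearer 0 than that of Srsf7. Of the 17 planned settings, the fit described here among them, Srsf6 was called in 5, Srsf4 in 9, Srsf3 in 10 and Srsf11 in 13, and at Srsf4 the highest LTearly library, with 408 CPM, lay above the lowest wtGMP library, with 400 CPM. Srsf2, whose human counterpart is mutated in myelodysplastic syndromes, had 79.3, 132, 83.3 and 74.8 CPM in LTearly, 83.0, 139 and 113 CPM in LTlate, 127, 133 and 114 CPM in BMTGMP, and 139, 130, 122 and 167 CPM in wtGMP. LTearly replicate 2 lay within the wtGMP range while the other LTearly libraries lay below it. Its log2 fold change of -0.59 ± 0.21 passed the test with an adjusted p of 0.0461 in edgeR and was called in 5 of those 17 settings. Srsf10 (-0.46, adjusted p = 0.122 in edgeR), Srsf9 (0.28, adjusted p = 0.55) and Srsf5 (-0.08, adjusted p = 0.82) did not pass.

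Within the U2 snRNP, the fitted changes of the subunits were unlike, a difference between genes that was not tested. Sf3a1, a subunit of the SF3A complex that joins the U2 snRNP, had 131, 127, 86.2 and 126 CPM in LTearly, 166, 175 and 169 CPM in LTlate, 170, 163 and 239 CPM in BMTGMP, and 235, 245, 239 and 249 CPM in wtGMP. LTearly lay below every library of the other 3 groups, and LTlate lay below wtGMP as well. Sf3a1 averaged 118 ± 21.1 CPM in LTearly and 242 ± 6.09 CPM in wtGMP (SD, n = 4 each), a log2 fold change of -1.04 ± 0.18 with an adjusted p of 8.79e-05 in edgeR. Its partner Sf3a3 had 170, 171, 194 and 162 CPM in LTearly, 175, 177 and 200 CPM in LTlate, 238, 225 and 159 CPM in BMTGMP, and 284, 280, 352 and 285 CPM in wtGMP. Every library of the other 3 groups was below every wtGMP library, and the log2 fold change of LTearly against wtGMP was -0.79 ± 0.17. Sf3b3 of the SF3B complex changed by -0.86 ± 0.17 and U2af2, the U2AF subunit that reads the polypyrimidine tract, by -0.51 ± 0.17 on the log2 scale, both called lower. U2af2 was called in 11 of the 17 planned settings, and its counts were divided between matching sites in every library.

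Sf3b1, the SF3B subunit that clasps the branch point and the most often mutated splicing gene in human myelodysplastic syndromes, was not among the genes that fell. It had 1226, 1020, 1097 and 943 CPM in LTearly, 913, 1025 and 1024 CPM in LTlate, 1029, 866 and 794 CPM in BMTGMP, and 966, 956, 882 and 973 CPM in wtGMP. The groups overlapped, and the log2 fold change of LTearly against wtGMP was 0.18 ± 0.14 (adjusted p = 0.395 in edgeR). Sf3b2 likewise had a fitted change of -0.02 ± 0.13. The ratio of Sf3b3 to Sf3b1 CPM, in which transcript length is the same in all libraries, was 0.117, 0.152, 0.139 and 0.133 in LTearly, 0.191, 0.172 and 0.177 in LTlate, 0.191, 0.255 and 0.185 in BMTGMP, and 0.308, 0.28, 0.301 and 0.223 in wtGMP. This ratio was chosen after the values were seen and is given as a description. U2af1, the U2AF subunit that reads the AG of the 3′ splice site, had 24, 29, 31.2 and 44.5 CPM in LTearly, 37.6, 31.9 and 25.6 CPM in LTlate, 35.5, 34.4 and 39.6 CPM in BMTGMP, and 49.5, 45.3, 51.6 and 57.0 CPM in wtGMP. All libraries of the other 3 groups were below all wtGMP libraries, but the log2 fold change of -0.66 ± 0.27 for LTearly missed the threshold (adjusted p = 0.0905 in edgeR). Sf3a2 and Sf3b4 were measured at low levels, with LTearly means of 12.5 and 8.28 CPM and wtGMP means of 13.8 and 10.8 CPM. Standard errors of 0.48 and 0.63 on the log2 scale leave their changes undetermined.

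**Figure D2:**
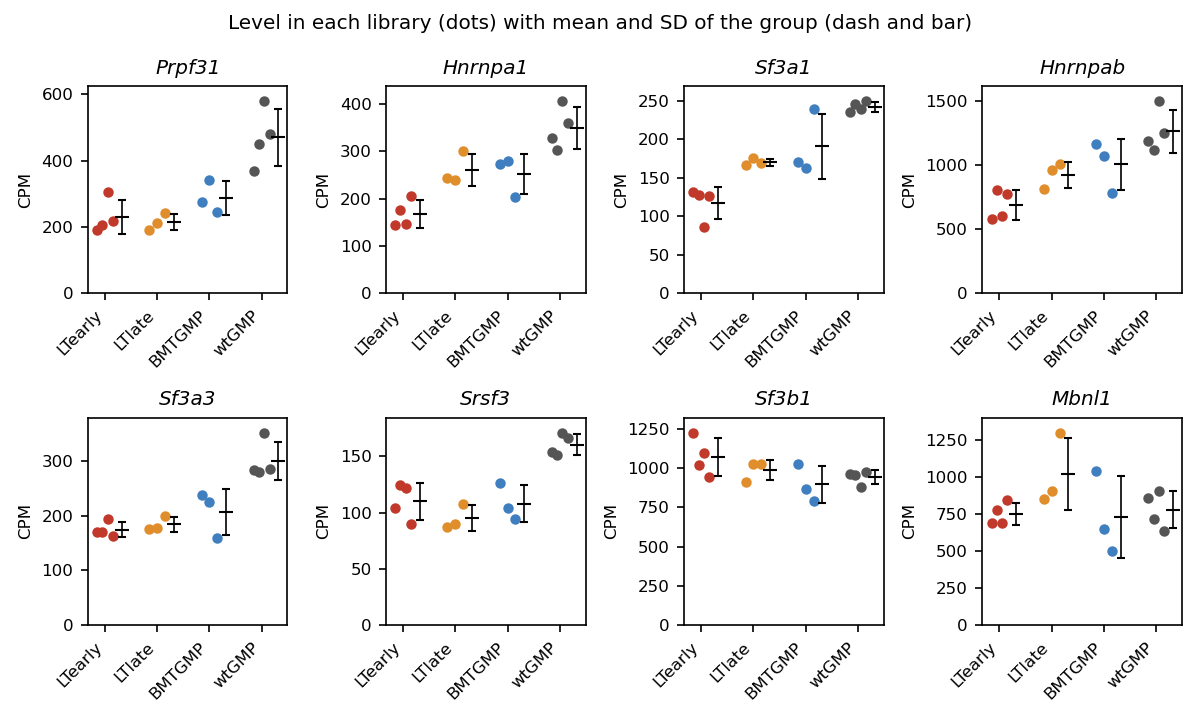
CPM of 8 genes in each library (dots) by group, with the group mean (dash) and SD (bar). Prpf31, Hnrnpa1, Sf3a1, Hnrnpab, Sf3a3 and Srsf3 are higher in every wtGMP library than in every LTearly library, whereas LTearly and wtGMP overlap for Sf3b1 and Mbnl1.

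Prpf31 was the gene with a call in all 3 groups against wtGMP. Its protein holds the U4/U6 and U5 particles together in the tri-snRNP, and loss of one human copy causes a form of retinitis pigmentosa. Prpf31 had 192, 205, 305 and 217 CPM in LTearly, 192, 212 and 242 CPM in LTlate, 275, 343 and 245 CPM in BMTGMP, and 369, 451, 579 and 482 CPM in wtGMP. The highest value outside wtGMP, 343 CPM in BMTGMP replicate 2, was below the lowest wtGMP value. The log2 fold changes against wtGMP were -1.04 ± 0.18 for LTearly (adjusted p = 0.000107), -1.13 ± 0.20 for LTlate (adjusted p = 0.000228) and -0.71 ± 0.19 for BMTGMP (adjusted p = 0.0232), all in edgeR. These 3 comparisons share the wtGMP libraries. The BMTGMP call was lost without BMTGMP replicate 1 or 4 and without wtGMP replicate 3 or 4.

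Prpf19, the ubiquitin ligase at the core of the Prp19 complex that stabilises the catalytic spliceosome, had 45.3, 50.1, 60.9 and 58.5 CPM in LTearly, 52.6, 66.2 and 64.4 CPM in LTlate, 89.0, 106 and 93.8 CPM in BMTGMP, and 88.0, 101, 103 and 122 CPM in wtGMP. LTearly and LTlate lay below both BMTGMP and wtGMP, and the LTearly change against wtGMP was -0.94 ± 0.21 on the log2 scale. Snrnp70, the U1 protein that helps recognise the 5′ splice site, had 254, 319, 396 and 365 CPM in LTearly, 386, 397 and 359 CPM in LTlate, 448, 422 and 549 CPM in BMTGMP, and 496, 601, 694 and 613 CPM in wtGMP. LTearly and LTlate lay below wtGMP throughout, with a log2 fold change of -0.85 ± 0.16 for LTearly, and BMTGMP overlapped with wtGMP. The other 5 genes of the role did not pass the test in LTearly: Prpf4 (-0.68, adjusted p = 0.151 in edgeR) and Prpf3 (-0.31) of the U4/U6 particle, Prpf8 (-0.11), the scaffold of the catalytic centre, Snrnp200 (-0.07), the helicase that unwinds U4 from U6, and Prpf6 (-0.04), which bridges U5 with the other particles.

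The last role held no called gene in any of the 6 comparisons. Mbnl1, a muscleblind protein that drives adult splicing patterns and is trapped by CUG repeats in human myotonic dystrophy, had 689, 779, 688 and 844 CPM in LTearly, 851, 905 and 1297 CPM in LTlate, 1039, 646 and 501 CPM in BMTGMP, and 855, 717, 907 and 635 CPM in wtGMP. Its paralogue Mbnl2 had 255, 149, 161 and 178 CPM in LTearly, 239, 184 and 185 CPM in LTlate, 164, 204 and 206 CPM in BMTGMP, and 220, 197, 169 and 190.0 CPM in wtGMP. Both overlapped between LTearly and wtGMP, with fitted changes of -0.05 ± 0.19 and -0.06 ± 0.18 on the log2 scale. Their paralogue Mbnl3 is outside this role, in the list of other alternative splicing regulators described below. Mbnl3 was called lower in LTearly (70.5 to 115 CPM) than in wtGMP (137 to 169 CPM), by -0.65 ± 0.2 (adjusted p = 0.018 in edgeR). LTlate against wtGMP also gave a lower call for Mbnl3 (-0.87 ± 0.22, adjusted p = 0.00731 in edgeR). Mbnl3 was chosen after its values were seen. Rbm39, an SR-like coactivator and the target of aryl sulphonamide degraders, had a log2 fold change of -0.23 ± 0.15 in LTearly against wtGMP (adjusted p = 0.304 in edgeR). In LTlate against wtGMP it was -0.49 ± 0.16, which narrowly missed the threshold (adjusted p = 0.0522 in edgeR). Every LTlate library (621 to 860 CPM) and every BMTGMP library (777 to 931 CPM) lay below the lowest wtGMP library, at 972 CPM.

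Promoter sequences were compared because most of these genes moved in 1 direction. RefSeq windows of 300 bases (GRCm38.p6, 250 before to 50 after the annotated start) were found for 41 of the 43 genes, 59 windows in all. The windows of the 3 genes with the largest LTearly falls and of Sf3b1, which did not fall, follow in the direction of transcription, with the letters CCGGAA (an ETS core) and GGGCGG (a GC box) in capitals on either strand. They lie at chr15:103240147-103240446 (Hnrnpa1, plus strand), chr11:4160104-4160403 (Sf3a1, plus strand), chr7:3629735-3630034 (Prpf31, plus strand) and chr1:55027429-55027728 (Sf3b1, minus strand).
Hnrnpa1: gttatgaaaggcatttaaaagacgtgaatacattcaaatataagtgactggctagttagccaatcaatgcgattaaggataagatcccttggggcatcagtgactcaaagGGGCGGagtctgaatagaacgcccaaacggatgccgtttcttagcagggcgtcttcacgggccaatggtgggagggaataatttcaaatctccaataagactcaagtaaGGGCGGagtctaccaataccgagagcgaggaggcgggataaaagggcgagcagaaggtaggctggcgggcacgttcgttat
Sf3a1: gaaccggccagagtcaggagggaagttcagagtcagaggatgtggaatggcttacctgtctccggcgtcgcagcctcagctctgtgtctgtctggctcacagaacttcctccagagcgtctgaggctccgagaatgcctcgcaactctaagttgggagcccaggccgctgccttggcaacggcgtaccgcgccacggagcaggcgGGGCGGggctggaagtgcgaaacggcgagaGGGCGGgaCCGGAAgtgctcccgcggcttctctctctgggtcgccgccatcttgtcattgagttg
Prpf31: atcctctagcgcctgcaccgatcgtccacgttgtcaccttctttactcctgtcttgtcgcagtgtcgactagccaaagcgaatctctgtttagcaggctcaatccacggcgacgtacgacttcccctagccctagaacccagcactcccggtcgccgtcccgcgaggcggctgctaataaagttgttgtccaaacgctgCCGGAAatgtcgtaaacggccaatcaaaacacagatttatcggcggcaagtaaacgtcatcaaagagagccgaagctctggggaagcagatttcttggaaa
Sf3b1: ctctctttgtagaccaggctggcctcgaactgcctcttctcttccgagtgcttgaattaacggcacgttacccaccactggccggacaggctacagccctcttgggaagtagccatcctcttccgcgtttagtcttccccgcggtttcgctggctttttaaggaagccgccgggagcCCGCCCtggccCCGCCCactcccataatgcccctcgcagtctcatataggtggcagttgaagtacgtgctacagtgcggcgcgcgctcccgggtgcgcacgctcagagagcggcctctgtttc
The Hnrnpa1 window holds 0 ETS cores and 2 GC boxes, the Sf3a1 window 1 and 2, the Prpf31 window 1 and 0, and the Sf3b1 window 0 and 2. Counting both strands, and allowing the motifs to share bases, CCGGAA was found in 49.2% of the 59 windows and in 14.9% of all 32851 promoter windows, and GGGCGG in 64.4% and 35.7%. The E-box CACGTG was found in 11.9% of the windows of these genes and 7.15% of all windows, and the TATA box TATAAA in 10.2% and 13.6%. Median GC content was 61.0% in the windows of these genes and 52.7% in all windows. All windows belong to 27025 genes, more than the 14553 tested here. They are thus not matched to these genes in expression or GC content. Between the 33 windows of genes called lower in LTearly and the 26 windows of genes not called, the shares ran in both directions. They were 54.5% and 42.3% for CCGGAA, 69.7% and 57.7% for GGGCGG, 6.06% and 19.2% for CACGTG, and 15.2% and 3.85% for TATAAA, with no test of the difference. A match of letters is a description of the window and shows no binding.

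LTlate against wtGMP gave fewer calls. In LTlate 8 of the 43 genes fell and 0 rose, where 3.26% of all genes tested fell and 7.5% rose. The median log2 fold change was -0.32 for the 43 genes, a ratio of 0.8, and 0.0 over all genes tested, and 35 of the 43 were fitted below 0. At 21 of the 43 genes every LTlate library lay below every wtGMP library (10.9% of all genes tested) and at 0 above (15.1% of all genes tested). By role the called genes were 3 of 8 in the U1, U5 and tri-snRNP role, 2 of 9 in the U2 snRNP and U2AF role, 2 of 10 SR proteins and 1 of 13 hnRNP proteins. Here 10 of the 11 late neutrophil genes and Itgam were also called higher, with the levels given above. Of the 10 proliferation genes 2 were called lower. The part of these markers in the fall was not tested.

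After Prpf31, the smallest p-values in LTlate belonged to Sf3a3 (log2 fold change -0.71 ± 0.18, adjusted p = 0.00894 in edgeR), Srsf3 (-0.76 ± 0.20, adjusted p = 0.011) and Snrnp70 (-0.66 ± 0.18, adjusted p = 0.0128). Srsf3, an SR protein that hands spliced mRNA to the export receptor, had 104, 125, 122 and 89.5 CPM in LTearly, 86.9, 90 and 108 CPM in LTlate, 126, 104 and 94.2 CPM in BMTGMP, and 154, 151, 171 and 166 CPM in wtGMP. All 3 other groups lay below wtGMP at this gene, whose counts were divided between matching sites in every library. The remaining calls were Srsf7 (-0.90), Prpf19 (-0.76), Hnrnph1 (-0.61) and Sf3b3 (-0.56), and each of the 8 had groups that did not overlap. Without LTlate replicate 2, or without LTlate replicate 3, the count of calls was 1; it was 5 without LTlate replicate 4 or wtGMP replicate 1 and 4 without wtGMP replicate 3. Lower genes made up 1.2%, 1.69% and 1.99% of all genes tested without LTlate replicates 2, 3 and 4 in turn. They made up 2.73% without wtGMP replicate 1 and 2.09% without wtGMP replicate 3, beside the 3.26% given above. Prpf31 was the gene called in all 16 planned settings, the fit described here among them. DESeq2 called 16 of the 43 genes lower, and 5.7% of all genes tested.

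BMTGMP against wtGMP gave 1 call among the 43 genes, the fall of Prpf31 given above, where 2.16% of all genes tested fell and 4.4% rose. The median log2 fold change of the 43 genes was -0.22, a ratio of 0.861, against 0.07 over all genes tested, and 37 of the 43 were fitted below 0. At 13 of the 43 genes every BMTGMP library lay below every wtGMP library (8.32% of all genes tested) and at 0 above (10.9% of all genes tested). Unadjusted p-values under 0.05 were found at 7 genes, all lower in BMTGMP, where 7.61% of all genes tested were lower at that threshold. DESeq2 called 5 genes lower, and 3.76% of all genes tested. Sf3a3 (-0.53, adjusted p = 0.0775 in edgeR) and Srsf3 (-0.57, adjusted p = 0.0892) came next to Prpf31 and did not pass. In this comparison 8 of the 11 late neutrophil genes were called higher, and their part was not tested.

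**Figure D3:**
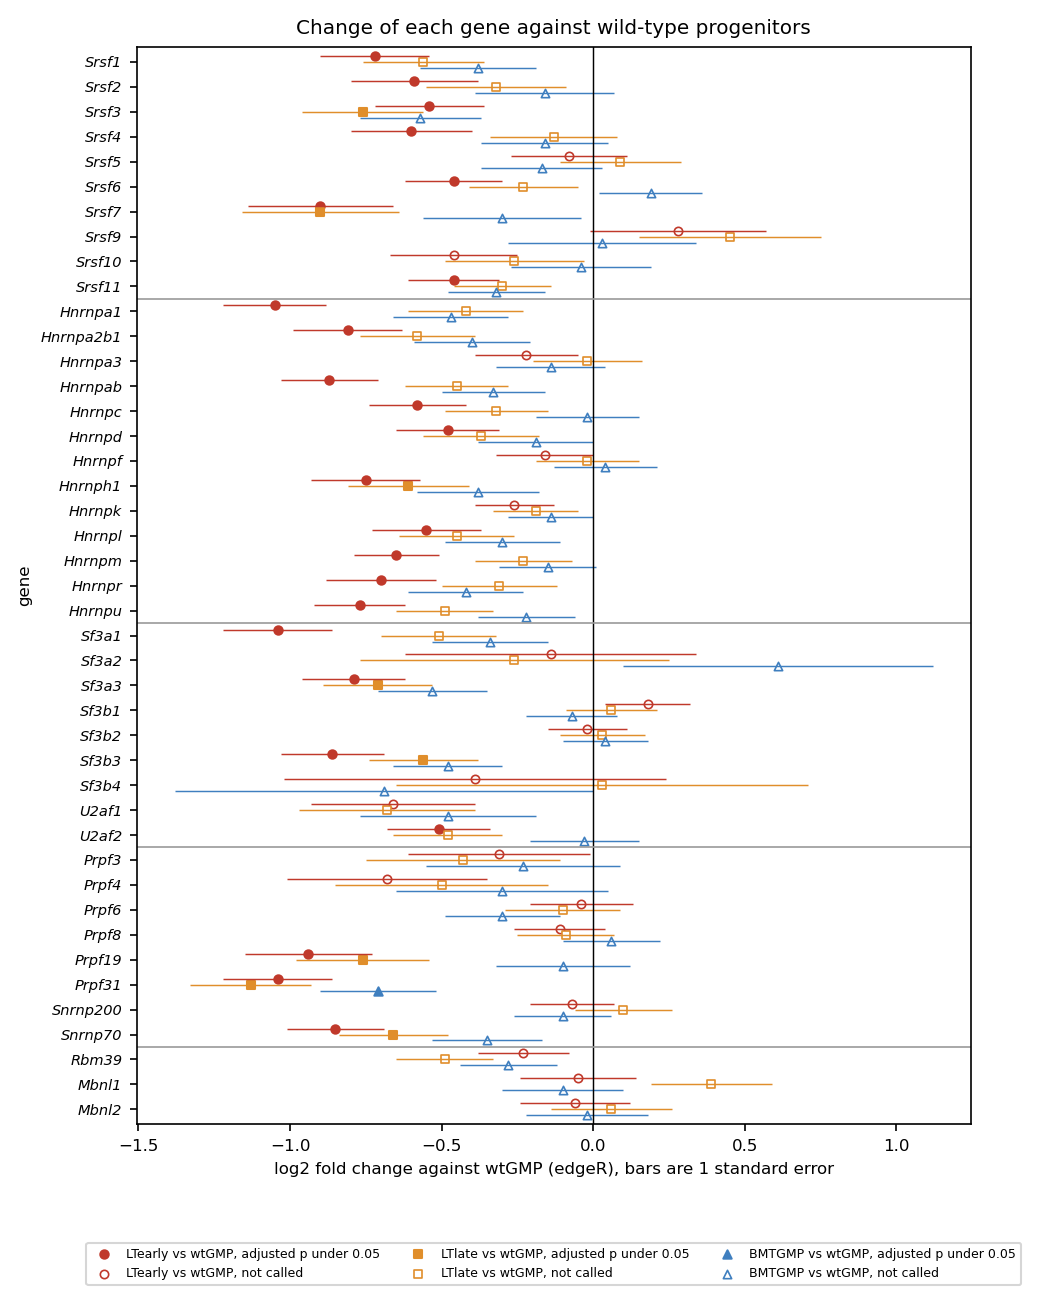
Log2 fold change of each of the 43 genes against wtGMP in edgeR (horizontal axis, bars are 1 standard error) for LTearly (circles), LTlate (squares) and BMTGMP (triangles), grouped by role; filled symbols have an adjusted p under 0.05. Filled symbols number 24 for LTearly, 8 for LTlate and 1 for BMTGMP, all left of 0, and the 3 sets of values share the same wtGMP libraries.

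LTearly, LTlate and BMTGMP were also compared with each other, which tests directly whether their levels differ. LTearly against LTlate gave 0 calls in either direction in edgeR, where 0.0893% of all genes tested were lower and 0.117% higher in LTearly. Unadjusted p-values under 0.05 were found at 6 of the 43 genes, all lower in LTearly, where 5.06% of all genes tested were lower at that threshold. The smallest adjusted p was 0.147 in edgeR, at Hnrnpa1. DESeq2 called 1 of the 43 genes lower (0.557% of all genes tested), and edgeR called 1 without LTearly replicate 4. In that edgeR fit 131 of 13671 genes tested were lower in LTearly and 67 higher. The median log2 fold change was -0.16 for the 43 genes and 0.11 for all genes tested, and at 6 genes the LTearly libraries all lay below the LTlate libraries (5.67% of all genes tested) and at 0 above them (4.51% of all genes tested). The larger count of falls against wtGMP in LTearly than in LTlate is therefore not a set of genes shown to differ between those groups.

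LTearly against BMTGMP gave 6 genes lower in LTearly and 0 higher, where 2.8% of all genes tested were lower and 3.39% higher. The median log2 fold change was -0.29 for the 43 genes, a ratio of 0.817, and 0.1 for all genes tested. The calls were Prpf19 (-0.84 ± 0.22, adjusted p = 0.0185 in edgeR), Srsf6 (-0.65 ± 0.17, adjusted p = 0.0233), Sf3a1 (-0.69 ± 0.19, adjusted p = 0.0241), Hnrnpu (-0.56 ± 0.16, adjusted p = 0.032), Hnrnpc (-0.56) and Hnrnpm (-0.51), and LTearly did not overlap with BMTGMP at any of them. In the same comparison 7 of the 11 late neutrophil genes and Itgam were called higher and 3 of the 10 proliferation genes lower in LTearly, and their part was not tested. Srsf6, an SR protein, had 166, 198, 160.0 and 236 CPM in LTearly, 198, 224 and 251 CPM in LTlate, 282, 292 and 322 CPM in BMTGMP, and 288, 251, 260 and 250 CPM in wtGMP. Its BMTGMP libraries were above all LTearly and LTlate libraries and overlapped with wtGMP. At 9 of the 43 genes every LTearly library lay below every BMTGMP library (7.79% of all genes tested) and at 0 above (7.78% of all genes tested). The count of calls was 0 with only the LTearly and BMTGMP libraries in the fit. It was 1 without LTearly replicate 3, 2 without LTearly replicate 1 or BMTGMP replicate 2, 3 without BMTGMP replicate 1 or 4, and 10 without LTearly replicate 4. Lower genes made up 1.12% of all genes tested with only LTearly and BMTGMP in the fit. They made up 2.12% without LTearly replicate 3, 2.39% without LTearly replicate 1 and 4.7% without LTearly replicate 4. Without BMTGMP replicates 1, 2 and 4 in turn the share was 1.57%, 1.81% and 1.91%.

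LTlate against BMTGMP gave 0 calls among the 43 genes in edgeR, where 0.46% of all genes tested were lower and 1.52% higher in LTlate. Unadjusted p-values under 0.05 were found at 5 genes, 4 of them lower in LTlate (5.28% of all genes tested) and 1 higher (6.72% of all genes tested). DESeq2 called 1 lower (1.33% of all genes tested), and edgeR called 1 gene without BMTGMP replicate 1. In that edgeR fit 67 of 15496 genes tested were lower in LTlate and 244 higher. The smallest adjusted p was 0.19, at Prpf19. At 8 genes every LTlate library lay below every BMTGMP library (9.65% of all genes tested) and at 1 gene above (10.8% of all genes tested).

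The rest of the splicing machinery was read from 8 further lists with 202 genes in the table, 195 of which passed the filter. In LTearly against wtGMP 47 of the 195 (24.1%) were lower and 6 were higher, beside 8.96% and 11.2% of all genes tested. Lower calls were most frequent in the list of Sm and LSm proteins, where 9 of 19 fell (median log2 fold change of the list -0.90). Sm and LSm proteins form the ring-shaped cores of the snRNPs, and the list also holds the U1 and U2 proteins Snrpa, Snrpb2 and Snrpc, of which Snrpa (-1.05) and Snrpb2 (-0.72) were among the 9. Snrpf had 110, 137, 67.2 and 138 CPM in LTearly and 324, 255, 421 and 296 CPM in wtGMP, a log2 fold change of -1.52 ± 0.22 and the smallest p of the list, with Snrpd3 (-1.38) and Lsm3 (-1.18) next by p. Of the other hnRNP and hnRNP-like proteins 11 of 31 fell (median -0.47), among them Ybx1, a cold-shock domain protein that packages mRNA, with 892 to 1254 CPM in LTearly and 2011 to 2686 CPM in wtGMP (-1.13 ± 0.15). Syncrip (-0.87) and Ptbp1, the polypyrimidine tract repressor of exons (-0.92), were the next by p.

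Of the tri-snRNP proteins and splicing helicases 8 of 23 fell (median -0.40). The smallest p-values were those of Eftud2, the GTPase of the U5 particle (-1.01 ± 0.18), Txnl4a (-0.89) and Sart3 (-0.64). The exon junction complex had 4 of 17 genes lower (median -0.28), with Pnn (-0.66), Rbm8a (-0.73) and Alyref (-0.58) at the smallest p-values. The U1, U2 and minor snRNP list had 3 of 23 lower (median -0.34), among them Snrpa1 (-0.72) and Rbm17 (-0.53). The Prp19 and related complexes had 3 of 20 lower and 1 higher (median -0.30). These were Ppil1 (-1.33), Isy1 (-0.78) and Cwc27 (-0.68), and Syf2 was higher (0.47). Of the other alternative splicing regulators 6 of 37 fell and 2 rose (median -0.12), with Msi2, a musashi RNA-binding protein known in stem and leukaemia cells, at 11 to 20.6 CPM in LTearly and 63.4 to 84.8 CPM in wtGMP (-2.11 ± 0.37), Nono at -0.64 and Ddx17, an RNA helicase, at 0.65.

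The SR kinases and SR-related proteins had 3 of 25 genes lower and 3 higher in LTearly (median -0.10), shares near the 8.96% lower and 11.2% higher among all genes tested, so the values that follow describe single genes and not the list. Srpk1, a cytoplasmic kinase that phosphorylates SR proteins for their import into the nucleus, had 146, 147, 128 and 160.0 CPM in LTearly and 243, 272, 292 and 277 CPM in wtGMP (-0.90 ± 0.16, adjusted p = 0.0002 in edgeR). Its paralogue Srpk2 had 508, 486, 397 and 403 CPM in LTearly, 275, 265 and 257 CPM in LTlate, 240.0, 260.0 and 266 CPM in BMTGMP, and 283, 350.0, 273 and 303 CPM in wtGMP. The pair went in opposite directions in LTearly, with Srpk2 higher by 0.57 ± 0.15 on the log2 scale (adjusted p = 0.00685 in edgeR), a value given after it was seen. Srpk2 was also the gene among the 195 called in LTearly against LTlate (0.75 ± 0.16, adjusted p = 0.0449 in edgeR), and it was higher in LTearly than in BMTGMP (0.81 ± 0.16, adjusted p = 0.00271). Tra2b, an SR-like exon activator, was lower in LTearly than in wtGMP (-0.95), and Son, a large scaffold protein of nuclear speckles, was higher (0.55), with 1965 to 2558 CPM in LTearly and 1441 to 1707 CPM in wtGMP.

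**Figure D4:**
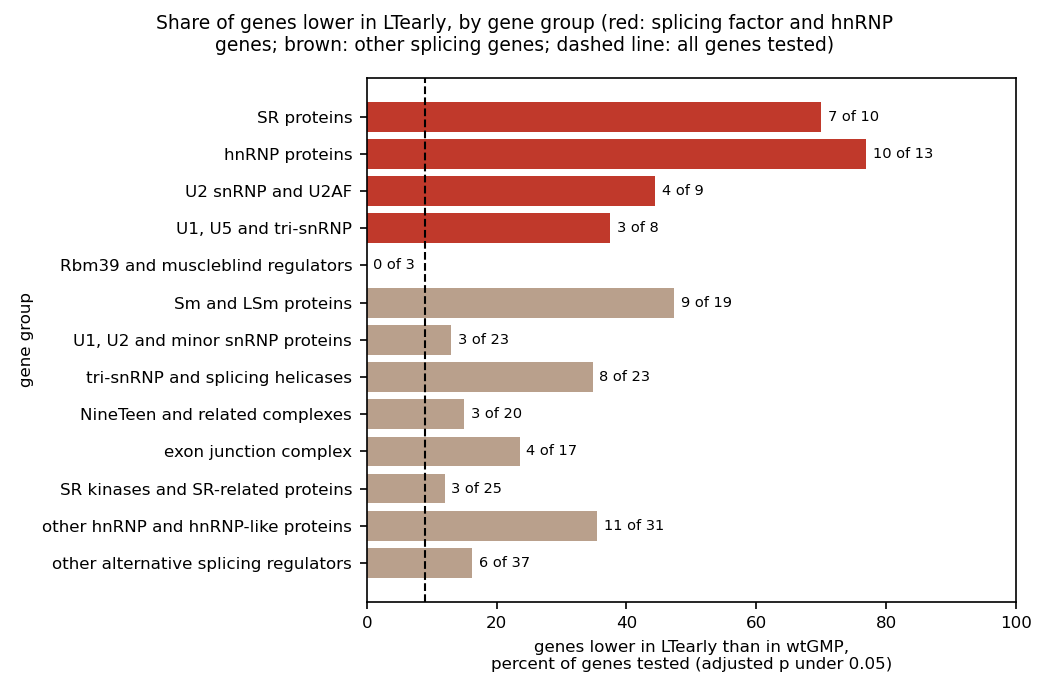
Share of the genes tested that were lower in LTearly than in wtGMP (adjusted p under 0.05 in edgeR) for the 5 roles of the 43 genes (red) and the 8 lists of other splicing genes (brown), with the count beside each bar; the dashed line is the 8.96% of all genes tested. The hnRNP and SR proteins stand at 10 of 13 and 7 of 10, and the SR kinases and SR-related proteins at 3 of 25.

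In the other comparisons the further lists held fewer calls. In LTlate against wtGMP 12 of 195 (6.15%) were lower, beside 3.26% of all genes tested, and 1 was higher. Snrpd3 (-0.93), Lsm3 (-0.87), Syncrip (-0.65), Ybx1 (-0.61), Tra2b (-0.75) and Srpk1 (-0.59) were lower there, and Son was higher (0.51). In BMTGMP against wtGMP 2 of 195 (1.03%) were lower, Msi2 (-2.11) and Srpk1 (-0.80), beside 2.16% of all genes tested. The 1 gene higher was Rbfox2, a splicing regulator of muscle, nerve and mesenchymal cells, with 20.8, 28.4 and 45.6 CPM in BMTGMP and 1.0, 8.66, 4.94 and 0 CPM in wtGMP (adjusted p = 0.0366 in edgeR). In LTearly against BMTGMP 11 of 195 (5.64%) were lower, beside 2.8% of all genes tested, and Ybx1 (-0.93 ± 0.16) had the smallest p.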

How the data were processed

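Libraries were made from 150 ng of total RNA with a low-input strand-keeping kit and sequenced on a HiSeq 2000, per the labels' protocols. The authors deposited 1 table of expected counts for 28847 RefSeq transcripts; per the file headers reads were placed on mm9 with up to 100 hits, with Bowtie 0.9.9.1 as the aligner listed in the submitters' processing notes. Of the deposited values 13.75% are not whole (tolerance 1e-06), since reads with several hits were divided among them, and 25 of the 43 genes have such values in at least 1 library. Transcripts were matched to symbols in RefSeq (25973) or GENCODE (119) tables; unmatched ones held 3.51% to 4.16% of the counts. For each gene the transcript of highest mean count was used and its counts rounded, because the transcripts of 19 of the 43 genes share reads. Of the table's columns 1 matches no sample and was not used, and of 105 pairs of libraries 0 were identical.

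The 14 libraries were fitted together in edgeR 4.0.16 (R 4.3.3) with TMM scaling and filterByExpr, which kept 14553 genes, using the robust quasi-likelihood test, 2-sided, with Benjamini-Hochberg adjustment over all genes and a threshold of 0.05. The common biological coefficient of variation was 0.748. CPM values are TMM-scaled, and each standard error was obtained by dividing the log2 fold change by the root of the F statistic. The CPM of the library with conflicting names come from a separate TMM scaling of all 15 libraries, those of the other 14 from the fit. No strand option of the counting is given in the sources used here. The scripts were tested on simulated data. DESeq2 1.42.0 was an alternative, as were other scalings, filters, gene summaries, sets of samples and a replicate block. The genes and lists were chosen with earlier results of these data known. Values per library are given for Sf3b1, Srsf2, U2af1, Mbnl1, Mbnl2 and up to 4 called genes per direction and comparison with the smallest p; of each further list up to 3 called genes are named per comparison, and others are said to be chosen after their values were seen. Intervals and errors cover these libraries only. Promoter windows are RefSeq's, of GRCm38.p6, not of the build of the counts.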

Additional observations from a re-analysis of the deposited data

Results flagged for a closer look

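Each of the 43 genes was checked for a library far from the rest of its group in LTearly and wtGMP, 86 groups in all, and 5 were picked out, where chance picks about 1 in 20. In LTearly these were Srsf2 in replicate 2, the highest at 132 CPM, Hnrnpf in replicate 1, the lowest at 386 CPM, and Sf3a1 in replicate 3, the lowest at 86.2 CPM. In wtGMP they were Sf3a3 in replicate 3, the highest at 352 CPM, and Sf3b4 in replicate 4, the lowest at 2.22 CPM.

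The library with conflicting names, which entered no comparison, was above every wtGMP library at 3 of the 43 genes. Single libraries of LTearly, LTlate and BMTGMP were above every wtGMP library at 1 to 5 of the 43. The share over all genes tested was not computed, so the count is a description. It had 443 CPM of Srsf5, 1012 CPM of Sf3b1 and 1074 CPM of Mbnl1. These CPM come from a separate scaling with that library included, so they are not on exactly the scale of the wtGMP values.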

How the results depend on the processing

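In LTearly against wtGMP the count of called genes was 18 to 25 under the alternatives that left out no single library (DESeq2 22, replicate block 21, left-out library as LTearly 25, median-ratio size factors 19, LTearly replicates 3 and 4 both left out 18, an alternative chosen after seeing the data), and 15 to 23 when 1 library was left out, with 15 without wtGMP replicate 3. Of all genes tested 9.59% were lower with DESeq2, 8.77% with the replicate block and 9.85% with the left-out library as LTearly. The share was 8.25% with median-ratio size factors and 8.49% without LTearly replicates 3 and 4. With 1 library left out it was 6.94% to 11.1%, beside 8.96% in the report's fit. Of the 24 genes 15 were called in all 17 planned settings, the fit in the report among them. In LTlate against wtGMP the 8 calls became 16 with DESeq2, 15 with the left-out library as LTlate, 17 with only the groups compared in the fit and 5 with transcripts summed, and 1 to 7 when 1 library was left out (5 without LTlate replicate 4 or wtGMP replicate 1, 4 without wtGMP replicate 3). Of all genes tested 5.7% were lower with DESeq2, 4.27% with the left-out library as LTlate, 8.39% with only the groups compared and 2.68% with transcripts summed. With 1 library left out the share was 1.2% to 2.73%, beside 3.26% in the report's fit. In BMTGMP against wtGMP the 1 call became 5 with DESeq2, 3 with only the groups compared and 0 with the replicate block, and 0 to 1 when 1 library was left out. Lower genes were 3.76%, 4.62% and 1.95% of all genes tested in those settings in turn. They were 1.11% to 1.96% with 1 library left out and 2.16% in the report's fit. LTearly against LTlate had 1 call with DESeq2 and 1 with the left-out library as LTearly, and 0 to 1 when 1 library was left out. There 0.557% of all genes tested were lower with DESeq2, beside 0.0893% in the report's fit. With the left-out library as LTearly 53 of 15244 genes tested were lower and 33 higher. LTearly against BMTGMP had 3 calls with the replicate block and 0 with only the groups compared, and 1 to 10 when 1 library was left out. Lower genes were 2.47% and 1.12% of all genes tested in those settings in turn. They were 1.57% to 4.7% with 1 library left out and 2.8% in the report's fit. LTlate against BMTGMP had 1 call with DESeq2, and 0 to 1 when 1 library was left out. There 1.33% of all genes tested were lower with DESeq2 and 0.46% in the report's fit. The cause was not tested.

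Values near 0 changed sign in LTearly against wtGMP: Sf3b2 (0.03), Prpf6 (0.01), Mbnl1 (0.0) and Mbnl2 (0.0) with DESeq2 and with median-ratio size factors alike, Mbnl1 with the left-out library as LTearly (0.04) and with transcripts summed (0.01), and Srsf9 (-0.09) and Mbnl2 (0.0) without LTearly replicates 3 and 4. With 1 library left out the ranges were -0.21 to 0.03 for Srsf5, -0.35 to 0.05 for Sf3a2, -0.08 to 0.01 for Sf3b2, -0.16 to 0.03 for Prpf6, -0.19 to 0.0 for Snrnp200, -0.14 to 0.03 for Mbnl1 and -0.27 to 0.03 for Mbnl2. Over all single-gene values 782 kept direction and side of the threshold, 152 lost it, 4 gained it and 23 changed sign. Under median-ratio scaling the median of all genes in LTearly against wtGMP was 0.27, and 0.22 under TMM.

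Libraries of different groups with the same replicate number were checked for a shared pattern. Their deviations from the group means correlated at -0.161 to 0.114 over 18 pairs, against -0.157 to 0.144 over 55 pairs with different numbers, and 3 of 14 libraries correlated best with their own number. With so few libraries per group this check cannot exclude a batch shared by libraries of the same number. Sf3b4 and Sf3a2 were measured at low levels, and the part of depth in their spread was not tested. Their deposited counts were not whole in 85.7% and 21.4% of the 14 libraries.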

Other observations

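The library with conflicting names had a median log2 ratio to the wtGMP mean of -0.57 over the 43 genes, within the LTearly range of -0.37 to -0.7 and outside the LTlate range of -0.3 to -0.41, and 31 of the 43 genes lay below the lowest wtGMP library in it. That count was 28 to 35 in the LTearly libraries, 27 to 31 in LTlate and 19 to 26 in BMTGMP. The share over all genes tested was not computed. The library with conflicting names had 134 CPM of Hnrnpa1, 131 CPM of Sf3a1, 178 CPM of Prpf31, 71.0 CPM of Srsf3 and 43.0 CPM of Prpf19. Of the kinases it had 158 CPM of Srpk1 and 503 CPM of Srpk2. Its summed late neutrophil level was 26170 CPM, above every library of the 4 groups. These values, from the separate scaling with that library included, assign it to no group.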
